A study of Mus musculus with 6 samples.

Results

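The genes described here code for the proteins of the cytosolic ribosome, measured by RNA sequencing in mouse intestinal crypt stem cells under hypoxia/reoxygenation (H/R). Members were all protein-coding genes of the deposited table named Rpl or Rps with a number, together with Rpsa, Rplp0, Rplp1 and Rplp2. Pseudogene names with "-ps" and the kinases named Rps6k were left out. The rule found 80 of 28752 listed genes, and all 80 passed the filter on low counts, with between 3163 and 98340 reads per member and sample. They comprised 31 proteins of the small (40S) subunit, 46 of the large (60S) subunit, of which 3 form the stalk, and 3 paralogs outside the standard set (Rpl7l1, Rpl22l1 and Rps27l). Another 5 genes of matching name (Rps3a2, Rps3a3, Rps4l, Rpl6l and Rpl32l) were not annotated as protein-coding and were not members.

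All 6 samples were described as Lgr5+ intestinal stem cells, taken from mice that carry GFP under the Lgr5 gene. They were reported as grown into organoids, which are cultured clusters of crypt epithelium. All were infected with adenovirus and exposed to H/R, with 4 h of hypoxia at 2% O2. The labels place H/R 72 h after infection, and the study's methods give a shorter time after transfection. In 3 samples the virus carried the vector alone (genotype given as WT), and in the other 3 it overexpressed circEZH2_005, a circular RNA from the Ezh2 gene. The comparison asks which mRNAs differ when circEZH2_005 is raised during H/R. The circular RNA itself was not analysed here, since the values are per gene. The study states for its experiments in general that replicates were independent and biological, and the labels do not name the culture or animal behind each sample. The p-values measure the spread between these samples.

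A ribosome reads mRNA with its 40S subunit and joins amino acids in its 60S subunit, and the proteins of both are needed in near-equal numbers. Most of their mRNAs begin with a run of pyrimidines (C and T in the DNA), the terminal oligopyrimidine or TOP tract, through which mTORC1 and the binding protein Larp1 set their translation and stability. In the gut, ribosome production is high in dividing crypt cells and declines as the cells mature.

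The letters around the transcription start are shown for members from both ends of the range of differences and for paralog pairs. The TOP tract by which the family is known would lie at that start. Each window runs from 10 bases before the RefSeq start of the gene (GRCm38.p6) to the 20th base counted from it, 5′ to 3′ on the gene's strand. Capitals mark the longest run of C and T where it reached 5 bases, whether or not it covered the annotated start. The marked run covered that start only in Rpl35, Rpl38, Rpl28 and Rps27, and no run was measured as a TOP tract.
Rps12 (chr10:23787190-23787219, minus strand): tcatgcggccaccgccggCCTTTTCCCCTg
Rpl22l1 (chr3:28805498-28805527, plus strand): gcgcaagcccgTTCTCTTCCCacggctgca
Rpl35 (chr2:39005112-39005141, minus strand): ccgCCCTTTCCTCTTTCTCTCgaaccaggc
Rpl23 (chr11:97782420-97782449, minus strand): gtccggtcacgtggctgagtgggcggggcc
Rpl38 (chr11:114668570-114668599, plus strand): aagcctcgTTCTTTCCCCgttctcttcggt
Rpl28 (chr7:4792955-4792984, plus strand): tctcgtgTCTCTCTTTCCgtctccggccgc
Rpl27 (chr11:101442235-101442264, plus strand): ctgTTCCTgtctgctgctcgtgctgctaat
Rps28 (chr17:33824543-33824572, minus strand): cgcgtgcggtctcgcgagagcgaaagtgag
Rpl22 (chr4:152325716-152325745, plus strand): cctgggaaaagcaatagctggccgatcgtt
Rps27 (chr3:90213629-90213658, minus strand): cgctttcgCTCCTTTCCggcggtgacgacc
Rps27l (chr9:66946076-66946105, plus strand): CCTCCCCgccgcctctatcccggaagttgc
Rpl7l1 (chr17:46782637-46782666, minus strand): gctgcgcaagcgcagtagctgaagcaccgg

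Rps12, Rpl22l1, Rpl35 and Rpl23 came from the end of the range with the lowest estimates, and Rpl38, Rpl28, Rpl27 and Rps28 from the end nearest to 0. Runs of C and T stood in windows from both ends, and Rpl23 and Rps28 had none of 5 bases. Of the 80 members, 60 had a RefSeq promoter entry outside chr18, with 71 entries among them, and Rpl7 and Rps29 had none. Member entries on chr18, where Rps14 and Rpl17 lie, were not used, and the set of all promoters was not restricted in this way. A run of at least 5 C or T bases lay over the annotated start in 28.2% of the 71 member promoters and in 10.1% of all 32851 promoters. A run of at least 7 anywhere in the 30 bases, a length chosen after the windows were seen, stood in 46.5% of member and 17.9% of all promoters.

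Other letters were searched on both strands from 250 bases before to 50 bases after the start. CTTCCG, the core of binding sites for Ets factors such as Gabpa, stood in 62.0% of member and 16.9% of all promoters. CCGGAAG, which overlaps it on the other strand, stood in 36.6% and 8.86%. AAGATGG, the core of the Yy1 site, stood in 16.9% and 6.34%, and GGGCGG, the core of the Sp1 site, in 62.0% and 35.7%. The TATA box letters TATAAA stood in 9.86% of member and 13.6% of all promoters, and CTTTTC in 25.4% and 21.8%. These are letter matches in the windows and were not measured as sites.

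The libraries held between 71506487 and 79919893 counted reads, of which the members took about 3%. Marker genes of the crypt stem cell (9 of 9, including Lgr5 and Olfm4) were detected in every sample, and no marker of any cell type list was at 0 in all 6 samples. Stem cell, enterocyte, T cell and other markers moved between the samples and are given beside the results below. The 3 circEZH2_005 samples did not sit together: replicate 2 had the lowest level of most members.

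Ribosomal protein mRNA took a smaller share of the reads in each circEZH2_005 sample than in any vector sample. The members held 3.17%, 3.41% and 3.09% of all counts in the 3 vector samples, a mean of 3.22% ± 0.168 (SD, n = 3). In the circEZH2_005 samples they held 2.93%, 2.16% and 2.67%, a mean of 2.59% ± 0.390 (SD, n = 3). The groups did not overlap, and the ratio of the means was 0.802. With 3 samples against 3, an exact permutation test of a single value cannot give a p below 0.1, so no test of the share was made. Without circEZH2_005 replicate 2, the lowest sample, the difference in share was -0.43 percentage points in place of -0.64. In bulk samples, fewer cells of a type and less RNA per cell cannot be told apart.

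Both subunits carried the difference. The 40S members held 1.33%, 1.44% and 1.29% of counts in the vector samples and 1.23%, 0.891% and 1.11% in the circEZH2_005 samples. The 60S members held 1.80%, 1.93% and 1.77% with the vector and 1.67%, 1.25% and 1.53% with circEZH2_005. The ratio of 60S to 40S reads was nearly constant, at 1.36 ± 0.0144 and 1.38 ± 0.0228 (SD, n = 3 each), and its ranges overlapped between the groups.

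**Figure D1:**
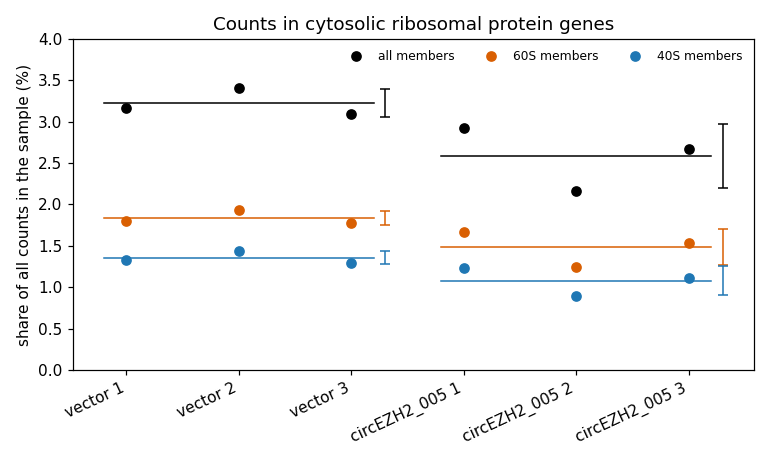
Share of all counted reads (%, y axis) in the 80 cytosolic ribosomal protein genes, in the 46 genes of the 60S and in the 31 of the 40S subunit, with 1 point per sample, lines at the group means and bars of 1 SD beside each group (n = 3). The black points lie between 3.09% and 3.41% with the vector and between 2.16% and 2.93% with circEZH2_005, and circEZH2_005 replicate 2 is the lowest in each colour.

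Across single genes the difference was small and shared, and no member passed the main test. By the quasi-likelihood test of edgeR with Benjamini-Hochberg adjustment over 18348 genes, 0 of 80 members were lower at an adjusted p under 0.05, where 0.986% of all genes tested were, and 0 were higher, where 2.69% were (3.67% in either direction). At a fold change beyond 2 with an unadjusted p under 0.05, 0 members were lower (1.34% of all genes) and 0 higher (6.22%). All 80 estimates in this fit were nevertheless below 0, as were 50% of all genes tested. The median log2 fold change of the members was -0.25, or 16.2% lower, with a range from -0.44 (Rps12) to -0.06 (Rps29), and the median over all genes was 0.00. The standard error of a member, worked back from the test statistic, was 0.105 at the median on that log2 scale. A typical estimate thus lay between 2 and 3 standard errors from 0, which restates the test.

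At an unadjusted p under 0.05, 47 of 80 members were lower, where 9.72% of all genes were. In 62 of 80 the groups did not overlap, where the same held for 14.2% of genes, and related lists are given below. The median standard error was 0.188 over all genes tested, against 0.105 for the members. These members were measured in the same 6 libraries and are not independent of each other. DESeq2 called 10 members lower at an adjusted p under 0.05, where it called 4.26% of the 16459 genes to which it gave an adjusted p. They were Rpl29, Rpl22l1, Rpl7, Rps4x, Rpl23, Rplp1, Rps24, Rpl26, Rps14 and Rpl35, with adjusted p-values from 0.00884 (Rpl29) to 0.0490 (Rpl35). limma on log2(FPKM + 1) called 1, Rpl29, where it called 2.74% of 13278 genes lower. With a pseudocount of 0.1 it called 0 members. In that fit 56 had an unadjusted p under 0.05, and the share of all genes was not taken. Rpl29, Rpl22l1, Rpl7, Rps4x, Rpl23 and Rplp1 had an edgeR adjusted p under 0.1, as had 3.74% of all genes in that direction.

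The count at an unadjusted p changed when single libraries were left out, which also leaves fewer samples to test. It was 14 without vector replicate 2 (8.73% of all genes in that fit), 22 without vector replicate 1 (6.33%) and 30 without circEZH2_005 replicate 2 (6.69%). It was 54 without circEZH2_005 replicate 1 (9.81%). Without vector replicate 3 it was 35, and without circEZH2_005 replicate 3 it was 41, with the share of all genes not taken. With both samples numbered 2 left out, a choice made after the data were seen, 11 of 80 members had an unadjusted p under 0.05 (7.86% of all genes), 72 of 80 had an estimate below 0 (49.7% of all genes), and the median was -0.14.

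Sample by sample, the members moved as a block. Against the mean of the vector samples, the median member was at -0.01, 0.08 and -0.07 on the log2 CPM scale in vector replicates 1, 2 and 3, and at -0.18, -0.42 and -0.18 in the circEZH2_005 replicates. CPM are read counts scaled to library size, with TMM factors. The number of members below the vector mean was 45, 8 and 76 in the vector samples and 76, 80 and 75 in the circEZH2_005 samples, so vector replicate 3 lay below its own group's mean for as many genes as circEZH2_005 replicate 1, though by less at the median. Vector replicate 2 was the highest sample for 67 members, and circEZH2_005 replicate 2 the lowest for 73.

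**Figure D2:**
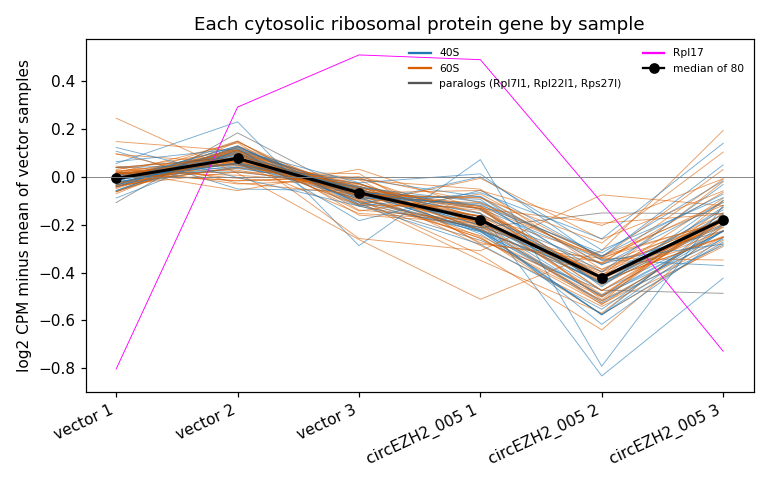
Level of each of the 80 genes in each sample as log2 CPM minus the mean of the 3 vector samples (y axis), with 1 thin line per gene in blue (40S), orange (60S) or grey (paralogs), and the median in black. The line joins samples of 1 gene and has no order along the replicates, the median falls to -0.42 in circEZH2_005 replicate 2, and Rpl17 (magenta) departs from the rest.

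The same samples differed in cell type markers. The summed stem cell markers were between 2168 and 3033 CPM with the vector and between 1473 and 2139 CPM with circEZH2_005, highest in vector replicate 2 and lowest in circEZH2_005 replicate 2. Olfm4 alone made up 70.45% of this sum, at 1447, 2314 and 1511 CPM and at 1383, 1003 and 1565 CPM (edgeR adjusted p = 0.314). Without Olfm4 the sums were 720.2, 719 and 802 CPM with the vector and 585, 469.7 and 574 CPM with circEZH2_005, so the groups did not overlap, circEZH2_005 replicate 2 was still the lowest, and vector replicate 2 was no longer the highest. In this list 3 of 9 genes (Lgr5, Smoc2 and Rgmb) fell at an edgeR adjusted p under 0.05, where 0.986% of all genes tested did. Lgr5 was at 16.1, 12.1 and 18.3 CPM with the vector and at 8.55, 9.10 and 7.70 CPM with circEZH2_005 (log2 fold change -0.88, edgeR adjusted p = 0.0434). Within the groups Lgr5 was lowest in vector replicate 2 and highest in circEZH2_005 replicate 2, the opposite of most ribosomal proteins. The summed enterocyte markers were between 13400 and 15650 CPM with the vector and between 14350 and 27990 CPM with circEZH2_005. The highest value was in circEZH2_005 replicate 2. Of 9 estimates 7 were above 0 and 2 below, among them Fabp1 (log2 fold change -0.37). By edgeR 1 gene (Apoa4) was called higher, where 2.69% of all genes tested were. Without Sis, 22.14% of this sum, the vector samples were at 10730, 10370 and 9356 CPM. The circEZH2_005 samples were then at 12060, 22790 and 18050 CPM, so the groups did not overlap, while the full sums did. Sis itself was at 4917, 4077 and 4039 CPM with the vector and at 2294, 5206 and 3166 CPM with circEZH2_005. The part of the stem cell and enterocyte markers in the result was not tested.

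Paneth cell markers summed to between 3945 and 7092 CPM with the vector and to between 2508 and 4395 CPM with circEZH2_005. Of these, 0 of 8 were called and 8 of 8 estimates were below 0 (50% of all genes tested). Goblet cell markers summed to between 5669 and 7252 CPM and between 6579 and 8241 CPM. Of these, 1 of 7 (Clca1) was called higher by edgeR, where 2.69% of all genes tested were. Without the largest gene of each list, Lyz1 and Fcgbp, both the Paneth and the goblet sums still overlapped between the groups. Markers of dividing cells overlapped, at 1297 to 1474 and 1227 to 1599 CPM, with 0 of 6 called.

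Leukocyte markers did not overlap, with sums between 81.3 and 236 CPM with the vector and between 296 and 534 CPM with circEZH2_005. The T cell markers lay at 31.9 to 104 and 158 to 253 CPM. Ptprc alone, a leukocyte marker, was at 22.8, 78.6 and 31.9 CPM and at 185, 140 and 103 CPM. It was above Lgr5 in every sample, in cells described as Lgr5+ stem cells. In neither list was any of 6 markers called, where 3.67% of all genes tested were. In both, 6 of 6 estimates were above 0, as were 9174 of all 18348 genes tested. B and plasma cell markers summed to between 7.98 and 15.5 CPM with the vector and to between 15.0 and 66.1 CPM with circEZH2_005, again with 0 of 6 called. Macrophage, fibroblast, enteroendocrine and tuft cell sums overlapped between the groups, and 0 markers of these lists were called. The part of these cells in the ribosomal protein values was not tested.

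Among the 31 proteins of the 40S subunit, the median log2 fold change was -0.27, and in 23 the groups did not overlap (14.2% of all genes). 19 were lower at an unadjusted p under 0.05 (9.72% of all genes), and DESeq2 called 3 (Rps4x, Rps24 and Rps14), against 4.26% of all genes.

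Rps12, a protein of the beak of the 40S subunit (chr10:23785183-23787275 of mm10, minus strand), had the lowest estimate of all members. It was at 369, 331 and 329 CPM in the vector samples and at 309, 193 and 256 CPM in the circEZH2_005 samples. The groups did not overlap, but circEZH2_005 replicate 2 lay below the other 2, and the estimate of -0.44 had a standard error of 0.16 (edgeR adjusted p = 0.156). Rps12 was 1 of 4 members whose SD within groups exceeded 0.2 on the log2 CPM scale.

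Rps27a (chr11:29545846-29548109, minus strand) is made as a fusion with ubiquitin. It was at 357, 380.2 and 331 CPM with the vector and at 307, 232 and 299 CPM with circEZH2_005, 21.6% lower (log2 fold change -0.35 ± 0.12 SE, edgeR adjusted p = 0.141). Rps19, the gene most often mutated in Diamond-Blackfan anaemia (chr7:24884371-24889806, plus strand), was at 284, 302 and 275 CPM and at 252, 206 and 245 CPM. Neither gene's groups overlapped, and neither passed the test.

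Rps6, the substrate of the S6 kinases downstream of mTORC1 (chr4:86854660-86857412, minus strand), was at 645, 692 and 629.6 CPM with the vector. With circEZH2_005 it was at 597, 480.2 and 588 CPM (log2 fold change -0.24 ± 0.11 SE, edgeR adjusted p = 0.231). Rpsa, which also serves as a laminin receptor precursor, was at 1049, 1102 and 1065 CPM and at 1012, 800.3 and 947 CPM. In both, circEZH2_005 replicates 1 and 3 lay close below the lowest vector sample, and replicate 2 clearly lower.

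Rps3a1, a 40S protein with the second highest level per length of all members (mean 613 FPKM), was at 704, 795 and 702 CPM with the vector and at 641, 517 and 626 CPM with circEZH2_005. Rps4x, an X-linked 40S protein (chrX:102184941-102189394, minus strand), was at 699, 734 and 696 CPM and at 607, 496 and 582 CPM. Its estimate of -0.34 ± 0.10 SE had an adjusted p of 0.0975 by edgeR and 0.0313 by DESeq2.

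Rps29 and Rps28, both among the genes mutated in Diamond-Blackfan anaemia, stood at the other end. Rps29 (chr12:69157722-69159186, minus strand) was at 143, 131 and 121 CPM with the vector and at 126, 109.8 and 145 CPM with circEZH2_005, and the highest of its 6 values was a circEZH2_005 sample. Rps28 (chr17:33819027-33824562, minus strand) was at 89.2, 92.6 and 75.2 CPM and at 82.1, 67.7 and 88.4 CPM. The groups overlapped in both, with estimates of -0.06 ± 0.12 and -0.11 ± 0.12 (SE), and the estimate of Rps29 was above 0 without circEZH2_005 replicate 2 (0.04) and without vector replicate 1 (0.01).

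Among the 46 proteins of the 60S subunit, the median log2 fold change was -0.25, and in 36 the groups did not overlap (14.2% of all genes). 26 were lower at an unadjusted p under 0.05 (9.72% of all genes), and DESeq2 called 6 (Rpl29, Rpl7, Rpl23, Rplp1, Rpl26 and Rpl35), against 4.26% of all genes.

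Rpl29, a small basic protein of the 60S subunit (chr9:106429454-106431568, plus strand), had the smallest p of the members and is named for it after its values were seen. It was at 190.0, 198 and 197 CPM with the vector and at 160.3, 154 and 153 CPM with circEZH2_005. Its samples within a group were the closest of all members, with an SD of 0.0338 on the log2 CPM scale, and here circEZH2_005 replicate 2 was not the lowest sample. The estimate was 20.02% lower (log2 fold change -0.32 ± 0.07 SE, edgeR adjusted p = 0.0551, limma adjusted p = 0.0495).

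Rpl35, which lies at the exit of the peptide tunnel (chr2:39001580-39005624, minus strand), was at 266, 289.9 and 251 CPM and at 214, 172 and 234 CPM. Rpl7 (chr1:16101295-16104662, minus strand) was at 712, 804 and 717 CPM and at 609.6, 511 and 608 CPM. Rpl23, on the face of the 60S subunit that meets the 40S (chr11:97777527-97782437, minus strand), was at 305, 333 and 303 CPM and at 263, 210.3 and 258 CPM. All 3 were separated between the groups and were 23.1%, 22.6% and 22.2% lower, with edgeR adjusted p-values of 0.122, 0.0869 and 0.0984.

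Rpl5 and Rpl11 form a particle with the smallest rRNA and, when free of the ribosome, bind Mdm2, the ubiquitin ligase of p53. Rpl5 (chr5:107900502-107909005, plus strand) was at 669, 748 and 679 CPM with the vector and at 621, 496 and 618 CPM with circEZH2_005. Rpl11 (chr4:136028265-136053428, minus strand) was at 384, 432 and 374 CPM and at 349.7, 293 and 332 CPM. Their estimates were alike, at -0.27 ± 0.11 and -0.29 ± 0.10 (SE), neither passed the edgeR test (adjusted p = 0.199 and 0.143), and the groups did not overlap in either. Rpl41, one of the shortest proteins known, was at 563, 537 and 544 CPM and at 453, 428 and 524 CPM.

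Rpl38 (chr11:114668524-114672331, plus strand), which is needed for normal axial patterning of the mouse embryo, was at 85.9, 78.9 and 76.4 CPM with the vector. With circEZH2_005 it was at 75.6, 66.3 and 86.3 CPM, so its highest value was again in circEZH2_005 replicate 3. Rpl28 was at 311, 327 and 298 CPM and at 300.1, 271 and 311 CPM, and Rpl27 at 259, 267 and 233 CPM and at 252, 211 and 242 CPM. The groups overlapped in these genes, with estimates of -0.08, -0.09 and -0.11 and edgeR adjusted p-values of 0.715, 0.605 and 0.578.

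The 3 stalk proteins, which recruit the elongation factors to the ribosome, did not overlap between the groups. The same held, with circEZH2_005 lower, for 62 of all 80 members and for 14.2% of all genes tested. Rplp1 (chr9:61913284-61914542, minus strand) was at 474, 488 and 445 CPM with the vector and at 392, 327 and 394 CPM with circEZH2_005, 20.8% lower (log2 fold change -0.34 ± 0.10 SE, edgeR adjusted p = 0.0986). Rplp0, the base of the stalk (chr5:115559467-115563727, plus strand), was at 1249.9, 1181 and 1256 CPM and at 1118, 884 and 1081 CPM. Rplp2 (chr7:141447370-141451585, plus strand) was at 185, 185 and 175 CPM and at 166, 144 and 159.6 CPM. The latter pair had estimates of -0.26 ± 0.11 and -0.21 ± 0.09 (SE) and did not pass the edgeR test (adjusted p = 0.209 and 0.185).

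**Figure D3:**
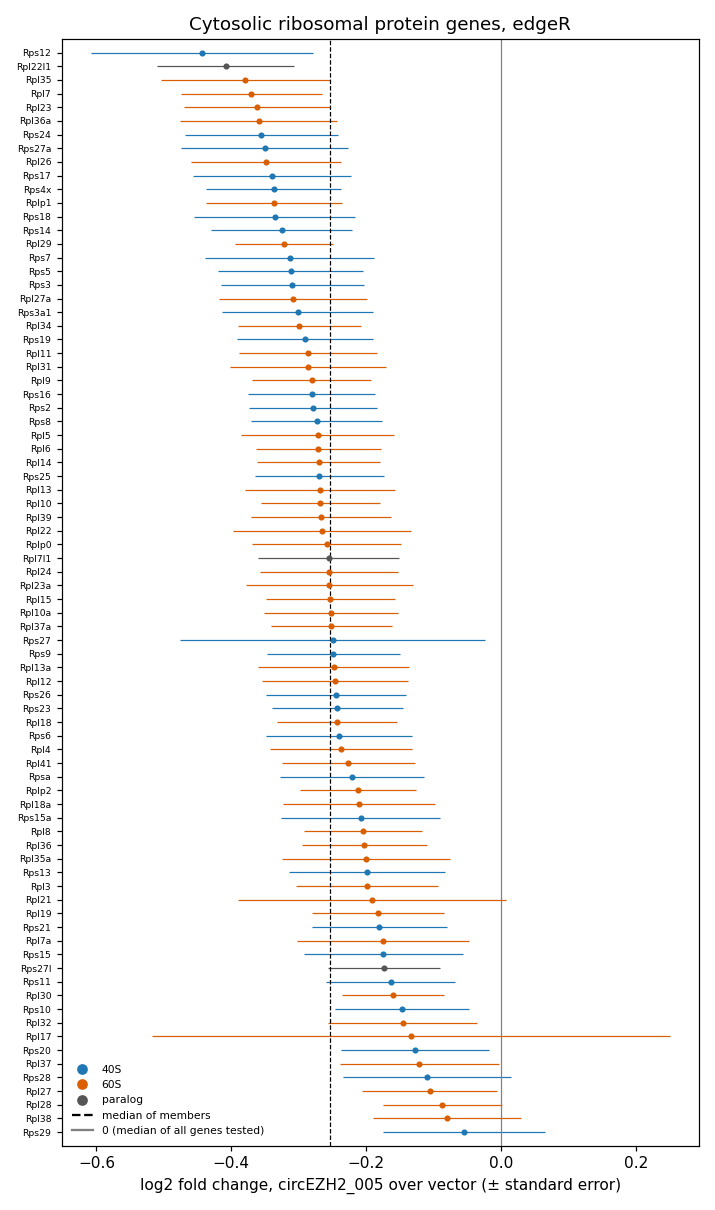
Log2 fold change of circEZH2_005 over vector from edgeR (x axis) for each of the 80 genes, ordered from Rps12 (-0.44) at the top to Rps29 (-0.06) at the bottom, with bars of 1 standard error, in blue (40S), orange (60S) or grey (paralogs). The dashed line is the members' median of -0.25, every point lies left of 0, the median of all genes, and Rpl17 and Rps27 have the widest bars.

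The 3 paralogs lay within the range of the standard members, with the groups apart in each, as in 62 of all 80 members and 14.2% of all genes tested. Rpl22l1, which can take the place of Rpl22 in the 60S subunit (chr3:28805436-28807424, plus strand), had the second lowest estimate. It was at 88.8, 100.9 and 84.1 CPM with the vector and at 75.7, 65.5 and 64.9 CPM with circEZH2_005 (24.7% lower, log2 fold change -0.41 ± 0.10 SE, edgeR adjusted p = 0.0668). Its parent Rpl22 was at 190.1, 207 and 168 CPM and at 164, 131 and 175 CPM, with overlap, and an estimate of -0.27 ± 0.13. The difference between the paralog and its parent was not tested.

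Rpl7l1, a paralog of Rpl7 found in ribosome precursors (chr17:46773907-46782656, minus strand), was at 92.2, 113 and 94.1 CPM and at 88.5, 77.1 and 84.9 CPM. Rps27l, a p53 target in textbook accounts (chr9:66946086-66949516, plus strand), was at 119, 122.8 and 107 CPM and at 100.2, 105 and 104 CPM. The 3 circEZH2_005 values of Rps27l lay close together, and its estimate of -0.17 ± 0.08 was the smallest in size of the 3 paralogs (edgeR adjusted p = 0.252).

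Levels per length spread widely over the family. The mean FPKM ran from 14.2 (Rpl21) to 759 (Rplp1), a 53.6-fold range, with a median of 148.5, and 59 of 80 members were at 100 or more. After Rplp1 came Rps3a1 and Rplp0, both at 613, and after Rpl21 from below came the paralogs Rpl7l1 (23.6) and Rpl22l1 (36.3), then Rps15a (38.7). The length behind an FPKM differs between members: the counts and FPKM of Rps15a imply 6953 bases and those of Rplp1 imply 553 bases. An order of FPKM within the family therefore carries the annotation's lengths with it.

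Some members share sequence with near-identical copies, and in a few pairs the counts of the member and of its copy varied against each other. Rpl17 had the widest spread of all, with an SD within groups of 0.658 on the log2 CPM scale against a median of 0.129 for the members. Its counts were 5248, 11569 and 14099 in the vector samples and 14126, 8733 and 5468 in the circEZH2_005 samples. The counts of the pseudogene Rpl17-ps10 were high where those of Rpl17 were low, except in circEZH2_005 replicate 2, at 14033, 8679 and 5927 and at 6658, 6349 and 11812. Summed, both rows gave 19281, 20248 and 20026 and then 20784, 15082 and 17280, and the SD fell to 0.136. In CPM, the vector samples then differed by 1.06-fold from highest to lowest, in place of 2.48-fold, so the values of Rpl17 alone are uncertain. With all its pseudogene rows added, Rpl17 had a log2 fold change of -0.19 ± 0.11 SE (edgeR adjusted p = 0.358).

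Rps27, the parent of Rps27l, showed the same with its retrogene Rps27rt. Rps27 counts were 14540, 16930 and 12386 with the vector and 16149, 8303 and 12738 with circEZH2_005. Rps27rt counts were 1816, 902 and 3697 and then 615, 4798 and 3459, high where Rps27 was low. The sums were 16356, 17832 and 16083 and then 16764, 13101 and 16197, and the SD within groups went from 0.371 to 0.153. The log2 fold change was -0.25 ± 0.23 SE for Rps27 alone and -0.13 ± 0.11 SE for the sum, a setting added after the data were seen, and neither passed the edgeR test (adjusted p = 0.560 and 0.553).

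**Figure D4:**
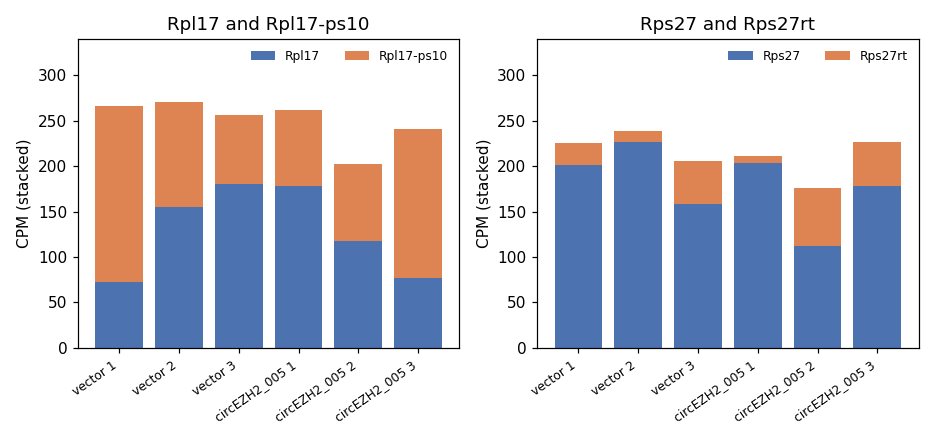
Stacked CPM (y axis, from 0) by sample for Rpl17 with the pseudogene Rpl17-ps10 (left) and for Rps27 with its retrogene Rps27rt (right). Apart from circEZH2_005 replicate 2 on the left, the lower part of a bar is small where the upper is large, and the height of the vector bars is nearly even for Rpl17 with Rpl17-ps10, where the summed counts were 19281 to 20248.

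Rows named "-ps" existed for 55 of the 80 members, 218 rows in all, and held 0.194%, 0.202% and 0.178% of all counts in the vector samples and 0.166%, 0.129% and 0.169% in the circEZH2_005 samples. Adding them to their members left 0 of 80 called by edgeR at an adjusted p under 0.05. Rpl21, the member with the lowest FPKM and among the 4 with the widest spread, had an estimate of -0.19 ± 0.20 SE alone and -0.28 ± 0.13 SE with its pseudogene rows. Some members also overlap a gene on the other strand, among them Rpl28 with Ube2s, Rpl35 with Arpc5l and Rpl5 with Dipk1a. No source used here says that reads were counted by strand, so reads of such pairs cannot be told apart.

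Fau and Rack1, ribosomal proteins that the rule does not name, had estimates nearer to 0 than the members' median. Fau, which encodes Rps30 fused to a ubiquitin-like protein, was at 327, 306 and 300.5 CPM with the vector and at 284, 293 and 308 CPM with circEZH2_005 (log2 fold change -0.08 ± 0.08 SE). Rack1, a scaffold on the 40S subunit, was at 785, 821 and 774 CPM and at 770.4, 623 and 737 CPM (-0.16 ± 0.10). Neither passed the edgeR test (adjusted p = 0.618 and 0.398).

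These genes belonged to a list of 19 ribosomal proteins and mRNAs known to begin with a TOP tract outside the rule. In either direction edgeR called 0 of them, where it called 3.67% of all genes tested. In this list 18 estimates were below 0 (50% of all genes), with a median of -0.20. At an unadjusted p under 0.05, 5 of the list were lower (9.72% of all genes). In 11 of the 19 the groups did not overlap, with circEZH2_005 lower (14.2% of all genes), and in 0 with circEZH2_005 higher. The lowest was Npm1, a nucleolar chaperone of ribosome assembly, at 580.3 ± 62.8 CPM with the vector and 407 ± 69.0 CPM with circEZH2_005 (SD, n = 3; log2 fold change -0.51, edgeR adjusted p = 0.0865), and the highest was Eif3f, at 128 CPM in both groups.

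Translation factors, the proteins that start, extend and end translation, shared 10 genes with that list. Of 37 factors, 9 were lower at an unadjusted p under 0.05 (9.72% of all genes tested). In 17 the groups did not overlap, with circEZH2_005 lower (14.2% of all genes), and in 3 with circEZH2_005 higher. Of the same 37, edgeR called 0 (3.67% of all genes), with 31 estimates below 0 (50%) and a median of -0.13. They ran from Eif1ax, which acts in start codon selection (92.4 ± 2.41 and 70.7 ± 6.56 CPM, adjusted p = 0.0568 by edgeR), to Eif6, which keeps free 60S subunits from joining (155 ± 3.92 and 188 ± 13.9 CPM, adjusted p = 0.0998). Eif6 did not pass the test but was higher in each circEZH2_005 sample than in any vector sample.

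Of 46 ribosome biogenesis genes, edgeR called 0 (3.67% of all genes tested), with 43 estimates below 0 (50%) and a median of -0.16. At an unadjusted p under 0.05, 7 were lower (9.72% of all genes). In 11 the groups did not overlap, with circEZH2_005 lower (14.2% of all genes), and in 2 with circEZH2_005 higher. Nop10, a part of the particles that modify rRNA, was the lowest, at 39.2, 41.7 and 42.1 CPM with the vector and at 29.6, 22.6 and 30.9 CPM with circEZH2_005 (log2 fold change -0.57 ± 0.13 SE, edgeR adjusted p = 0.0542). Sbds, which releases Eif6 from the 60S subunit, was the highest, at 0.32 ± 0.10 (SE). Of 33 genes of RNA polymerases I and III, which transcribe rRNA and tRNA, edgeR also called 0 (3.67% of all genes). Of these, 26 had an estimate below 0 (50%), with a median of -0.19. At an unadjusted p under 0.05, 9 of the 33 were lower (9.72% of all genes). In 12 the groups did not overlap, with circEZH2_005 lower (14.2% of all genes), and in 2 with circEZH2_005 higher. Estimates of the 33 ran from Polr3g (-0.64) to Taf1b (0.54).

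Mitochondrial ribosomal proteins, which serve a separate ribosome, were compared as the most like family. Of 78, edgeR called 1 lower, where 0.986% of all genes tested were, and 0 higher, where 2.69% were. In this family 69 estimates were below 0 (50% of all genes), with a median of -0.17. At an unadjusted p under 0.05, 21 were lower (9.72% of all genes). In 27 the groups did not overlap, with circEZH2_005 lower (14.2% of all genes), and in 2 with circEZH2_005 higher. The called gene was Mrpl42, a subunit of that ribosome, at 77.5, 77.8 and 72.5 CPM with the vector and at 49.1, 52.2 and 58.1 CPM with circEZH2_005 (log2 fold change -0.52 ± 0.09 SE, edgeR adjusted p = 0.0301). No mitochondrial ribosomal protein was called without vector replicate 1 or 3, or without circEZH2_005 replicate 2 or 3. The family held 0.331%, 0.370% and 0.322% of counts in the vector samples and 0.313%, 0.258% and 0.294% in the circEZH2_005 samples.

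Among 24 regulators around mTORC1, Myc and TOP mRNAs, estimates went both ways, with 11 below 0 and a median of 0.08. edgeR called 2 higher (2.69% of all genes tested) and 0 lower (0.986%). Mxd1, a partner of Max that opposes Myc, rose from 129, 170.5 and 126 CPM with the vector to 267, 477 and 356 CPM with circEZH2_005 (log2 fold change 1.37 ± 0.22 SE, adjusted p = 0.0263). Rps6kb2, a kinase of Rps6, rose from 20.4, 19.8 and 19.4 CPM to 28.4, 33.0 and 25.9 CPM (0.55 ± 0.11, adjusted p = 0.0426). Neither call remained without vector replicate 1 or 3, or without circEZH2_005 replicate 2 or 3, and 1 of the list was called without circEZH2_005 replicate 1.

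The genes best known for controlling ribosomal protein mRNA did not pass the edgeR test. Myc was at 26.1, 46.5 and 25.2 CPM with the vector and at 37.7, 30.9 and 42.2 CPM with circEZH2_005 (adjusted p = 0.709). Larp1 was at 226, 253 and 232 CPM and at 283, 251 and 248 CPM (adjusted p = 0.412), and Mtor had an estimate of 0.10 ± 0.11 (SE). Eif4ebp1, an inhibitor of translation that mTORC1 switches off, had an estimate of 0.30 ± 0.26. The lowest estimate of the list was that of Mycl, a relative of Myc, at -0.73 ± 0.22 (adjusted p = 0.105). Hnrnpa1, the RNA-binding protein that the study ties to circEZH2_005, was at 523, 522 and 531 CPM and at 509, 425 and 420.3 CPM (adjusted p = 0.232).

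**Figure D5:**
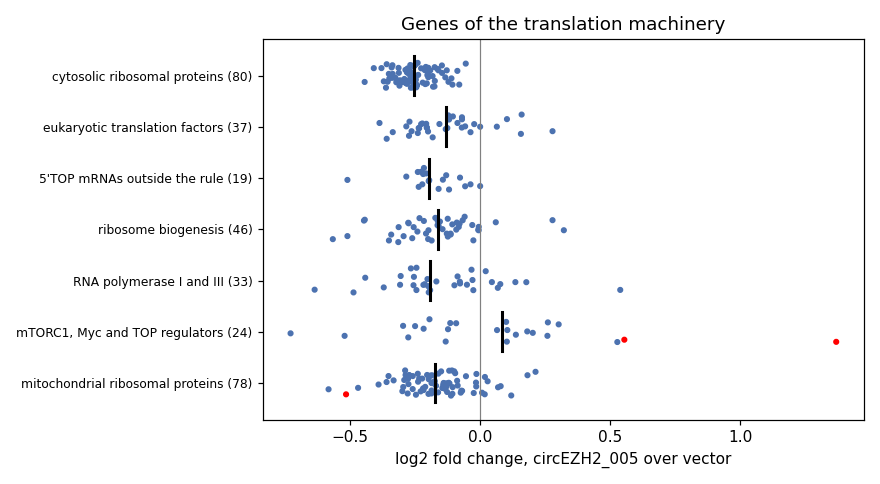
Log2 fold change of circEZH2_005 over vector (x axis) of each gene in 7 lists (rows, with the number of genes in brackets), with 1 point per gene, a black bar at each median and red points for genes with an edgeR adjusted p under 0.05. The 80 cytosolic ribosomal proteins lie between -0.44 and -0.06 with no red point, and the red points are Mrpl42, Rps6kb2 and Mxd1.

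Genes of short implied length were set beside the members, although only 9 of the 80 members were themselves under 1000 bases by this measure (median 2003 bases). Of 318 protein-coding genes outside the rule with an implied length under 1000 bases, 176 had an estimate below 0 (50% of all genes). The median was -0.08, and edgeR called 7 higher (2.69% of all genes tested) and 3 lower (0.986%).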

How the data were processed

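RNA of 6 samples (3 per group) was sequenced from oligo(dT) libraries. The authors deposited a count of reads and an FPKM value per gene and sample, on mm10. The submitters' processing notes name cutadapt 1.9, HISAT2 2.0.4, StringTie 1.3.4d and DESeq2. Columns named for a negative control were assigned to the vector group, since the labels hold no other control, and 0 columns were unused. GENCODE M21 held 80 of the 80 members, 68 of them with identical start and end.

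Counts were filtered with filterByExpr (18348 genes left), scaled with TMM (factors 0.931 to 1.04) and tested, two-sided and with no covariate, by edgeR 4.0.16 (quasi-likelihood; R 4.3.3). The Benjamini-Hochberg adjustment covered every tested gene. Standard errors of edgeR estimates were worked back from the size of the estimate and the F statistic of its test. CPM values are counts per library size after TMM scaling, and groups were called apart where their CPM ranges did not meet. Alternatives were DESeq2 1.42.0, limma 3.58.1 on log2(FPKM + 1) and log2(FPKM + 0.1) with a minimum FPKM of 0.5, other scalings and filters, a replicate block, sums with pseudogene rows and leaving out samples. The main edgeR fit was run on simulated counts with larger changes, drawn independently in random genes. That run does not show whether it could call small differences shared by the members. The other fits were not run on simulated counts.

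Members named were the 5 lowest and 5 highest estimates, the 3 highest mean FPKM, paralogs with their parents, and 10 chosen for their roles. Rpl29, Rpl17, Rpl21 and the genes called by DESeq2 were named after their values were seen. Related lists were named by their lowest and highest estimates and their calls. A gene of the naming rule is not reported here. The members, lists and tests were chosen with earlier results of these data known.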

Additional observations from a re-analysis of the deposited data

How the results depend on the processing

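No member was called by edgeR at an adjusted p under 0.05 under other scalings or filters, with pseudogene rows added, or with any 1 sample left out. Calls among the 80 members, the 40S and the 60S members and the members named by rule were 10, 3, 6 and 5 with DESeq2. They were 6, 1, 4 and 4 at an edgeR adjusted p under 0.1. limma called 1, of the 60S, on log2(FPKM + 1) and 0 on log2(FPKM + 0.1). Of all genes, 4.26% were called lower by DESeq2, 3.74% by edgeR at that threshold and 2.74% by limma on log2(FPKM + 1). The members' median log2 fold change was -0.31 with total counts alone, where the median of all genes was -0.06, and -0.34 with limma, where it was -0.07. Leaving out 1 sample at a time gave a median from -0.31 to -0.17, 78 to 80 estimates below 0, 62 to 72 members without overlap, 14 to 54 with an unadjusted p under 0.05 and a difference in share from -0.81 to -0.43 percentage points. The share of all genes without overlap was not taken with 1 sample left out, where groups separate more readily. With both samples numbered 2 left out, 11 members had an unadjusted p under 0.05 (7.86% of all genes).

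Calls in the related lists, counted in either direction, also moved. Of the 18348 genes tested by edgeR, DESeq2 called 701 lower and 1586 higher. At an adjusted p under 0.1, edgeR called 11.3% of all genes in either direction, and limma with a pseudocount of 1 called 2.74% lower. The share of all genes was not taken under the other settings. Of the translation factors, 2 were called with total counts, 4 with DESeq2, 3 and 2 with limma (pseudocounts 1 and 0.1) and 5 at an adjusted p under 0.1. Of the TOP mRNAs outside the rule, DESeq2 called 2 and the looser threshold 2. Of ribosome biogenesis genes they called 2 and 3, and leaving out 1 sample gave 0 to 1. Of RNA polymerase I and III genes, 2 were called with total counts, 5 with DESeq2, 2 and 2 with limma, 4 at the looser threshold and 0 to 1 without 1 sample. Of the regulators, 0 were called without a filter, 6 with DESeq2, 6 at the looser threshold, 5 without both samples numbered 2 and 0 to 4 without 1 sample. Of the mitochondrial ribosomal proteins, 3 were called with total counts, 0 without a filter, 5 with DESeq2, 3 and 3 with limma, 6 at the looser threshold, 0 without both samples numbered 2 and 0 to 1 without 1 sample.

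Of the values of single named genes, 486 kept direction and side of the threshold, 7 newly passed it and 11 changed sign. Without both samples numbered 2, the estimates of Rps29 (0.0352), Rpl28 (0.00261), Rpl27 (0.00534), Rps28 (0.0524), Rps27 (0.0853) and Rpl17 (0.00802) were above 0. With 1 sample left out at a time, that of Rps29 ran from -0.163 to 0.0373, above 0 without vector replicate 1 (0.00705) or circEZH2_005 replicate 2. That of Rpl38 ran from -0.182 to 0.00883, above 0 without circEZH2_005 replicate 2. That of Rpl17 ran from -0.489 to 0.118, above 0 without vector replicate 3 or circEZH2_005 replicate 3. The cause was not tested.

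Samples with the same replicate number did not deviate together (correlations across genes -0.14, -0.02 and 0.04), and not every sample correlated best with its own number, so the numbers were not taken as a pairing. With the replicate number as a block, 0 members were called and the median was -0.26. In this fit 15 members had an unadjusted p under 0.05, and the share of all genes was not taken. The same fit called 1 regulator and 0 mitochondrial ribosomal proteins. Members had at least 3163 reads in each sample, and each group had 3 samples.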
